A study of Mus musculus with 8 samples.

Results

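The calcium-regulated phosphatase calcineurin and the NFAT transcription factors that it activates were examined in spleen cells of leukaemic mice. The set held 9 genes of 54018 gene identifiers: the NFAT factors Nfatc1, Nfatc2, Nfatc3 and Nfat5, the calcineurin catalytic subunits Ppp3ca, Ppp3cb and Ppp3cc, the regulatory subunit Ppp3r1, and the calcineurin inhibitor Rcan1. The genes were taken by symbol in a set selected on the FPKM differences between the groups compared here, which were already known, so the differences of these 9 genes between groups are given as descriptions, and the count of calls among them is not read as evidence. RNA abundance was measured by sequencing polyadenylated RNA of splenic mononuclear cells in 8 libraries. In 4 libraries (replicates 1, 2, 5 and 4, called knockdown) the C57BL/6 mice had the genotype Kdm1aKD;Eµ-TCL1A, with a doxycycline-inducible construct that lowers the histone demethylase Kdm1a, and in 4 (replicates 1 to 4, called control) the genotype Eµ-TCL1A. All 8 libraries came from leukaemic mice that carried the TCL1A oncogene, which the immunoglobulin Eµ enhancer drives in B cells, a model of chronic lymphocytic leukaemia. The labels do not say which cells carried the inducible construct, how old the mice were or whether control mice received doxycycline. The labels do not tie each library to 1 mouse, so the spread may in part be technical.

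In resting lymphocytes, NFAT proteins of the NFATc group are phosphorylated and lie in the cytoplasm. When antigen receptors raise the calcium concentration, calmodulin and the regulatory subunit activate the catalytic subunit of calcineurin, which removes phosphates from NFATc proteins and lets them enter the nucleus. Kinases such as GSK3 and DYRK return them to the cytoplasm, and RCAN1 binds and inhibits calcineurin. NFAT5 is the member that responds to osmotic stress and is not controlled by calcineurin in the same way. In the Eµ-TCL1 mouse, NFAT2, the product of Nfatc1, is known for its link to the unresponsive (anergic) state of leukaemic B cells.

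Levels are FPKM, fragment numbers scaled to transcript length and library size, so genes of different length can be set side by side. Steps between low values showed that 1 fragment per kilobase was worth 0.0214 to 0.0251 FPKM, and the lowest of the 9 genes rested on 112 to 265 fragments per kilobase in each library. Kdm1a, the targeted gene, had 20.2, 21.0, 15.6 and 15.5 FPKM in knockdown replicates 1, 2, 5 and 4, against 24.2, 21.2, 24.1 and 31.1 FPKM in control replicates 1 to 4. Its level in the knockdown libraries averaged 0.719 of the control mean, and the difference did not pass (limma adjusted p = 0.2225). The groups did not overlap, but knockdown replicate 2 lay just under control replicate 2. Knockdown replicate 4 and control replicate 4 stood apart in different marker lists. The mean log2(FPKM + 1) of 10 erythroid markers was 9.22 in knockdown replicate 4 and 4.97 to 6.69 elsewhere, and that of 10 B cell markers, all above 1 FPKM in every library, was 5.94 in knockdown replicate 4 and 6.91 to 7.54 elsewhere. Control replicate 4 was inside those ranges, but had the highest mean log2 level of 6 plasma cell markers (6.82, with knockdown replicate 4 lowest at 4.83) and the lowest of 9 monocyte and macrophage markers (3.37, with knockdown replicate 4 highest at 5.73). The female-specific transcript Xist was high in all 4 knockdown libraries (94.9 to 175 FPKM). Among controls it was high in replicate 1 alone (110 FPKM) and otherwise reached 0.128 FPKM at most, so sex and group nearly coincide.

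All 9 genes passed the filter of at least 1 FPKM in at least 4 libraries. None was called at an adjusted p under 0.05 (limma over 12890 genes), where 1.74% of all genes tested were called, and 2 had an unadjusted p under 0.05, against 19.2% of all genes. In 6 of the 9 the knockdown level was lower and in 3 higher. The median log2 change over the 9 was −0.21, while the median over all genes tested was 0.13. Groups did not overlap for 1 of the 9, Ppp3cb, where 13.1% of all genes tested had groups that did not overlap, 11.2% with the knockdown higher and 1.9% with it lower. The choice of the set used this comparison, so these counts are not read further. Rescaling the libraries by the median of ratios moved the median over all genes from 0.13 to −0.02 and lowered each of the 9 log2 changes by about that shift.

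**Figure D1:**
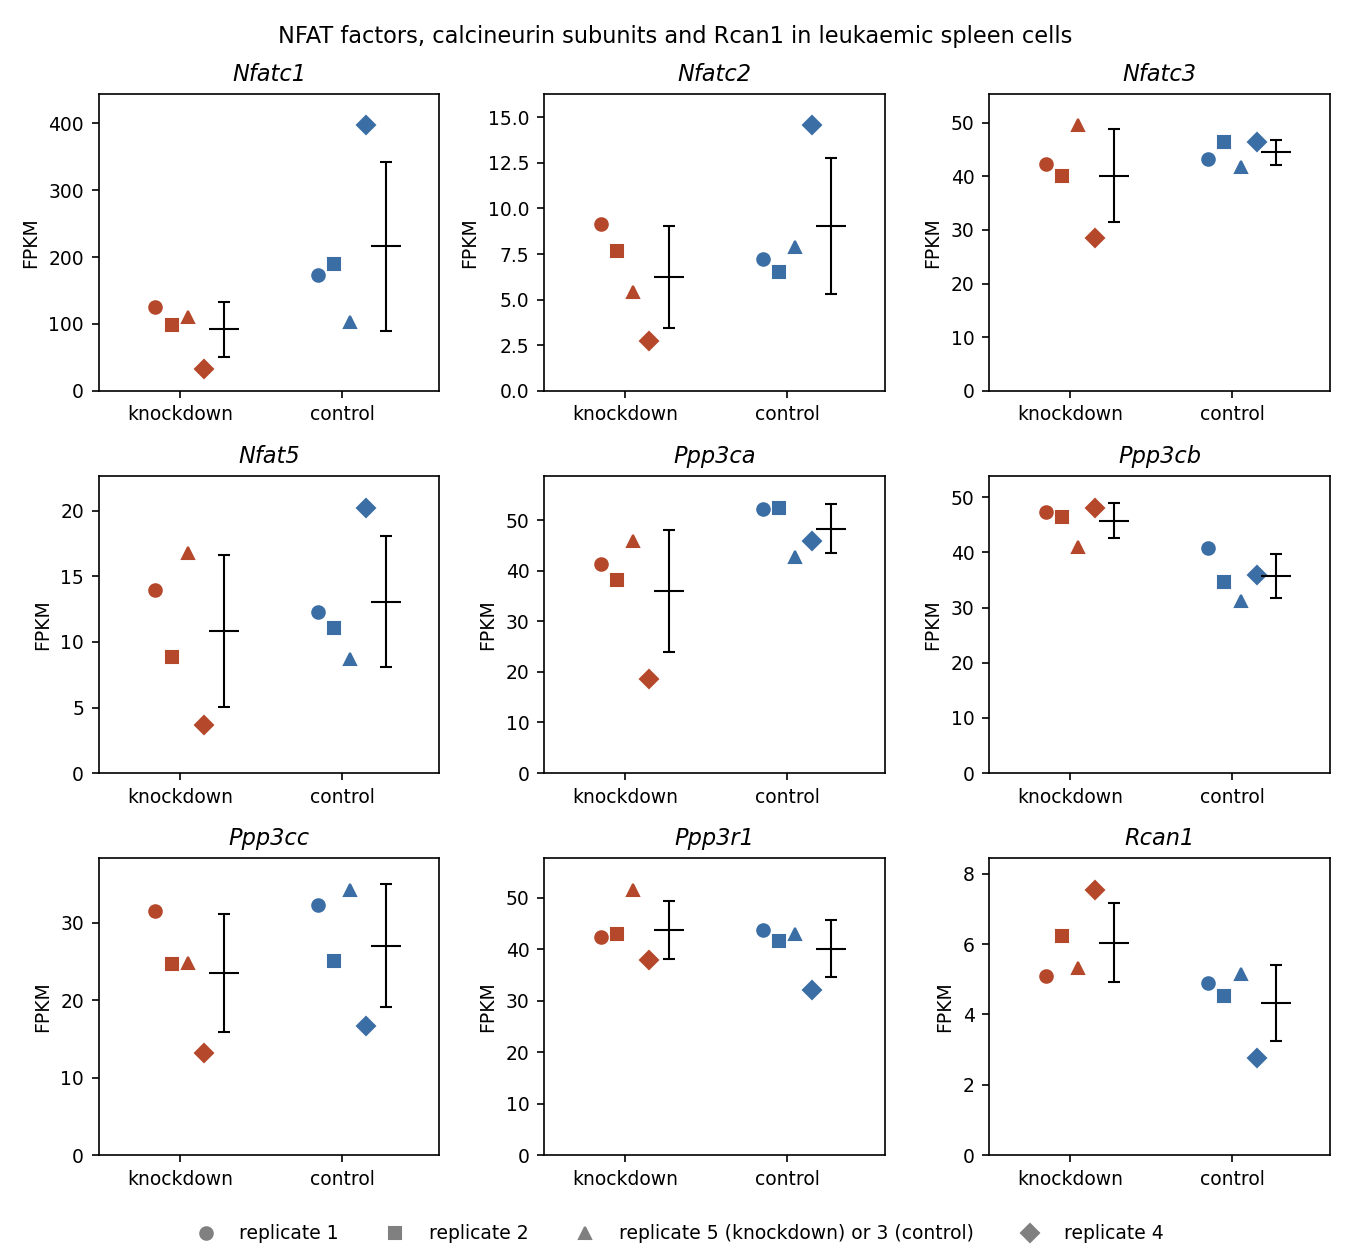
FPKM (linear axis from 0) of the 9 genes in each library, with knockdown libraries in red on the left and control libraries in blue on the right; marker shapes give the replicate, and the black bar and whiskers give the mean and SD of 4 libraries. Nfatc1 spans 32.8 to 397 FPKM, while Ppp3cb stays between 31.2 and 48.1 FPKM with every knockdown library above every control.

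Among the NFAT factors, Nfatc1 had the highest level and varied most. It lies on chromosome 18 (80606205 to 80713071, minus strand, GRCm38; ENSMUSG00000033016) and encodes the NFAT factor that antigen receptor signalling induces in lymphocytes. It had 126, 98.4, 111 and 32.8 FPKM in knockdown replicates 1, 2, 5 and 4, against 174, 190, 103 and 397 FPKM in control replicates 1, 2, 3 and 4. The groups overlapped, since control replicate 3 lay below knockdown replicates 1 and 5, and the lowest and the highest of all values were those of the replicate 4 libraries. The knockdown mean was 92.0 ± 41.1 FPKM and the control mean 216 ± 126 FPKM (SD, n = 4 each), a ratio of 0.426, and the log2 change was −1.21 ± 0.49 (SE). It was −0.78 without knockdown replicate 4, −0.87 without control replicate 4 and −0.43 without both. Of the 12890 genes tested, 500 had a higher mean over the 8 libraries than Nfatc1.

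The B cell markers are set beside Nfatc1, because the TCL1A oncogene is driven in B cells. They do not tell leukaemic from other B cells. The summed FPKM of the 10 B cell markers ranged from 1270 to 3376 in knockdown libraries and from 3515 to 4196 in controls. The mean log2 level, in which each marker counts alike, ordered the libraries otherwise: it was 7.54, 7.49, 6.91 and 5.94 in knockdown replicates 1, 2, 5 and 4, against 7.18, 7.03, 7.19 and 7.22 in control replicates 1 to 4. The B cell markers Fcer2a (25.1 ± 16.4 and 5.97 ± 0.895 FPKM in knockdown and control libraries, SD, n = 4 each) and Cr2 (48.1 ± 41.7 and 15.3 ± 4.51 FPKM) had higher means in the knockdown libraries, and neither passed the test (limma adjusted p = 0.101 and 0.449). The groups did not overlap for Fcer2a but did for Cr2, where knockdown replicate 5 lay below every control. The other markers of the list had lower means in the knockdown libraries. The mean log2 level thus joins changes of opposite sign, and values relative to it depend on the markers chosen. In RNA of a mixed tissue, fewer cells of a type and less RNA per cell cannot be told apart. Relative to the mean log2 level of those markers, Nfatc1 was at −0.55, −0.85, −0.10 and −0.86 in knockdown replicates 1, 2, 5 and 4, against 0.27, 0.55, −0.49 and 1.42 in control replicates 1 to 4. The groups overlapped on this scale too, with a difference of means of −1.03. Subtracting the marker level shifts the difference of every gene by the same amount, so this value shows nothing particular to Nfatc1, and the part of B cell content in its difference was not tested. Knockdown replicate 4, lowest in FPKM, was then level with knockdown replicate 2. Control replicate 4 remained the highest library.

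**Figure D2:**
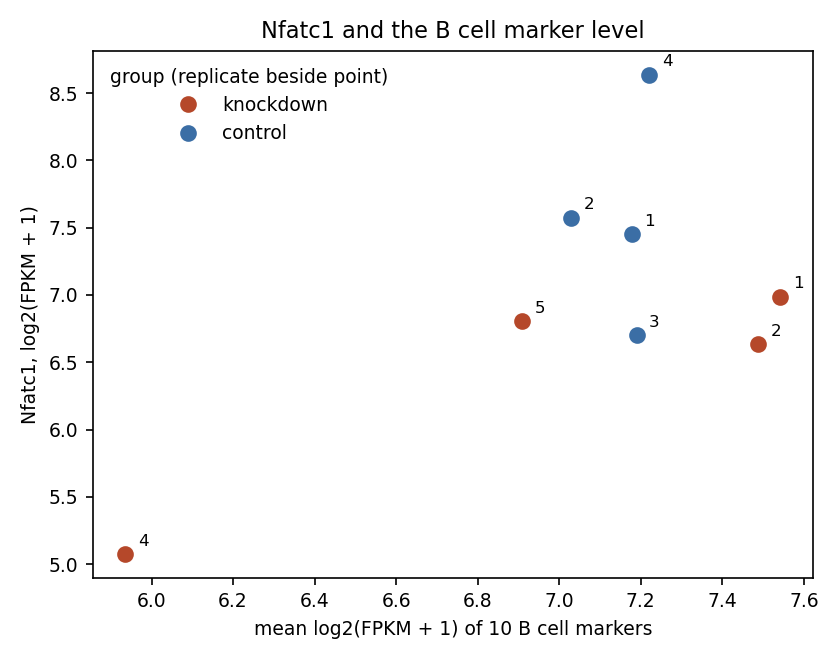
Nfatc1 as log2(FPKM + 1) against the mean log2(FPKM + 1) of 10 B cell markers, 1 point per library with its replicate number, knockdown in red and control in blue. Knockdown replicate 4 is low on both axes, at 5.94 on the marker axis, and control replicate 4 is high in Nfatc1 at a marker level of 7.22 that is near those of the other controls.

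By the root-mean-square difference of mean-centred log2(FPKM + 1) profiles over the 8 libraries, the closest of 8754 genes of at least 5 FPKM to Nfatc1 were Rbm47, Kmt2a and Rab3b. Their differences were 0.16, 0.20 and 0.20 log2 units, against a median of 1.07 over all candidates. Rbm47, which encodes an RNA-binding protein, had 9.005, 6.43, 9.22 and 2.26 FPKM in knockdown replicates 1, 2, 5 and 4, against 15.1, 12.8, 9.05 and 36.2 FPKM in control replicates 1 to 4. Kmt2a, a histone H3K4 methyltransferase gene, was at 6.99 FPKM in knockdown replicate 4 and 103 FPKM in control replicate 4. Rab3b, a small GTPase gene, was at 1.34 and 18.9 FPKM in the same 2 libraries. As for Nfatc1, the extremes of these 3 genes were the replicate 4 libraries, which follows from choosing them by likeness to its profile.

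Nfatc3 was the second NFAT factor by level and the steadiest. It lies on chromosome 8 (106058840 to 106130537, plus strand) and had 42.3, 40.1, 49.5 and 28.6 FPKM in knockdown replicates 1, 2, 5 and 4, against 43.3, 46.3, 41.8 and 46.5 FPKM in control replicates 1 to 4. Knockdown replicate 4 alone lay far below the rest, and the other 3 knockdown libraries spread around the controls. The means were 40.1 ± 8.67 and 44.5 ± 2.31 FPKM in knockdown and control libraries (SD, n = 4 each), with a log2 change of −0.17 ± 0.19 (SE) that was −0.0003 when both replicate 4 libraries were left out.

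Nfatc2, a factor best known from T cells, was low. It lies on chromosome 2 (168476410 to 168601657, minus strand), and had 9.17, 7.69, 5.41 and 2.75 FPKM in knockdown replicates 1, 2, 5 and 4, against 7.22, 6.54, 7.86 and 14.6 FPKM in control replicates 1 to 4. The groups overlapped widely, and the 2 extremes were again the replicate 4 libraries. The log2 change was −0.50 ± 0.34 (SE) over all 8 libraries and 0.01 without those 2. The mean log2 level of 11 T cell markers, all above 1 FPKM in every library, was 4.44 to 5.58 in knockdown libraries and 3.65 to 5.33 in controls. Control replicate 4, with the highest Nfatc2, had the lowest T cell marker level. Knockdown replicate 1 had the highest of both among knockdown libraries, and the part of T cells in Nfatc2 was not tested.

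Nfat5, the osmotic stress factor, lies on chromosome 8 (107293470 to 107379517, plus strand). It had 13.96, 8.87, 16.8 and 3.67 FPKM in knockdown replicates 1, 2, 5 and 4, against 12.3, 11.1, 8.71 and 20.2 FPKM in control replicates 1 to 4. The groups overlapped over most of their range, with a log2 change of −0.36 ± 0.41 (SE). Its sign was not stable, since the value was 0.03 without knockdown replicate 4 and 0.25 without both replicate 4 libraries. Nfatc4, the remaining family member, was at most 0.03 FPKM in any library and was not tested.

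Within the NFATc group, Nfatc1 made up most of the transcripts in every library. Its share of the summed FPKM of Nfatc1, Nfatc2 and Nfatc3 was 71.0%, 67.3%, 66.9% and 51.1% in knockdown replicates 1, 2, 5 and 4, against 77.5%, 78.2%, 67.5% and 86.7% in control replicates 1 to 4. Shares do not depend on the scaling of a library. The groups overlapped only through control replicate 3, which lay below knockdown replicate 1. The mean share was 64.1% ± 8.84 in knockdown and 77.5% ± 7.85 in control libraries (SD, n = 4 each), a difference of −13.4 percentage points, which was −5.98 without both replicate 4 libraries. The share of Nfatc3 was 31.4% ± 9.13 and 19.0% ± 7.04, and that of Nfatc2 was 4.50% ± 0.932 and 3.56% ± 1.09, in knockdown and control libraries.

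Of the catalytic subunits of calcineurin, Ppp3cb was the gene whose groups did not overlap. It encodes the beta isoform (chromosome 14, 20499364 to 20546573, minus strand) and had 47.3, 46.4, 41.1 and 48.1 FPKM in knockdown replicates 1, 2, 5 and 4, against 40.9, 34.6, 31.2 and 35.9 FPKM in control replicates 1 to 4. Every knockdown library lay above every control, although knockdown replicate 5 exceeded control replicate 1 by little. The means were 45.7 ± 3.19 and 35.7 ± 4.01 FPKM in knockdown and control libraries (SD, n = 4 each), a ratio of 1.28, with a log2 change of 0.35 ± 0.15 (SE). Unlike Nfatc1, its value was nearly the same without both replicate 4 libraries, at 0.33. It was 0.19 after median-of-ratios scaling, and 0.16 with sex as a covariate, a fit in which the difference rests on control replicate 1 alone. Relative to the B cell marker level, which depends on the markers chosen, its difference was 0.54 and the groups overlapped.

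Ppp3ca, the alpha isoform (chromosome 3, 136670124 to 136937727, plus strand), had the opposite sign. It had 41.3, 38.2, 45.9 and 18.5 FPKM in knockdown replicates 1, 2, 5 and 4, against 52.2, 52.5, 42.7 and 45.9 FPKM in control replicates 1 to 4. The groups overlapped through knockdown replicate 5, and knockdown replicate 4 had less than any other library. The log2 change was −0.48 ± 0.27 (SE), −0.20 without knockdown replicate 4 and −0.22 without both replicate 4 libraries. Its sign was negative under all 21 alternatives computed.

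Ppp3cc, the gamma isoform (chromosome 14, 70217865 to 70289471, minus strand), had 31.4, 24.7, 24.8 and 13.1 FPKM in knockdown replicates 1, 2, 5 and 4, against 32.2, 25.0, 34.2 and 16.6 FPKM in control replicates 1 to 4. In each group the replicate 4 library was the lowest. The groups overlapped, and the log2 change was −0.21 ± 0.30 (SE) and 0.04 without knockdown replicate 4.

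Setting the isoforms against each other within a library removes its scaling. The ratio of Ppp3cb to Ppp3ca was 1.15, 1.21, 0.894 and 2.60 in knockdown replicates 1, 2, 5 and 4, against 0.783, 0.660, 0.732 and 0.783 in control replicates 1 to 4. Each knockdown library was above each control, and in the 3 knockdown libraries other than replicate 5 the beta isoform transcript exceeded the alpha one, which it did in none of the controls. As a share of the summed catalytic FPKM, Ppp3cb made up 39.4%, 42.4%, 36.7% and 60.4% in knockdown replicates 1, 2, 5 and 4, against 32.6%, 30.9%, 28.9% and 36.5% in control replicates 1 to 4. These groups barely failed to overlap, at 36.7% in knockdown replicate 5 and 36.5% in control replicate 4. The mean difference of 12.5 percentage points was 7.31 without knockdown replicate 4 and 8.74 without both replicate 4 libraries. Knockdown replicate 4, with the highest ratio, also had the highest erythroid and lowest B cell marker level. Knockdown replicate 1, with the lowest erythroid and highest B cell marker level, had a ratio of 1.15, above every control. The part of cell types other than B cells in this ratio was not tested.

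**Figure D3:**
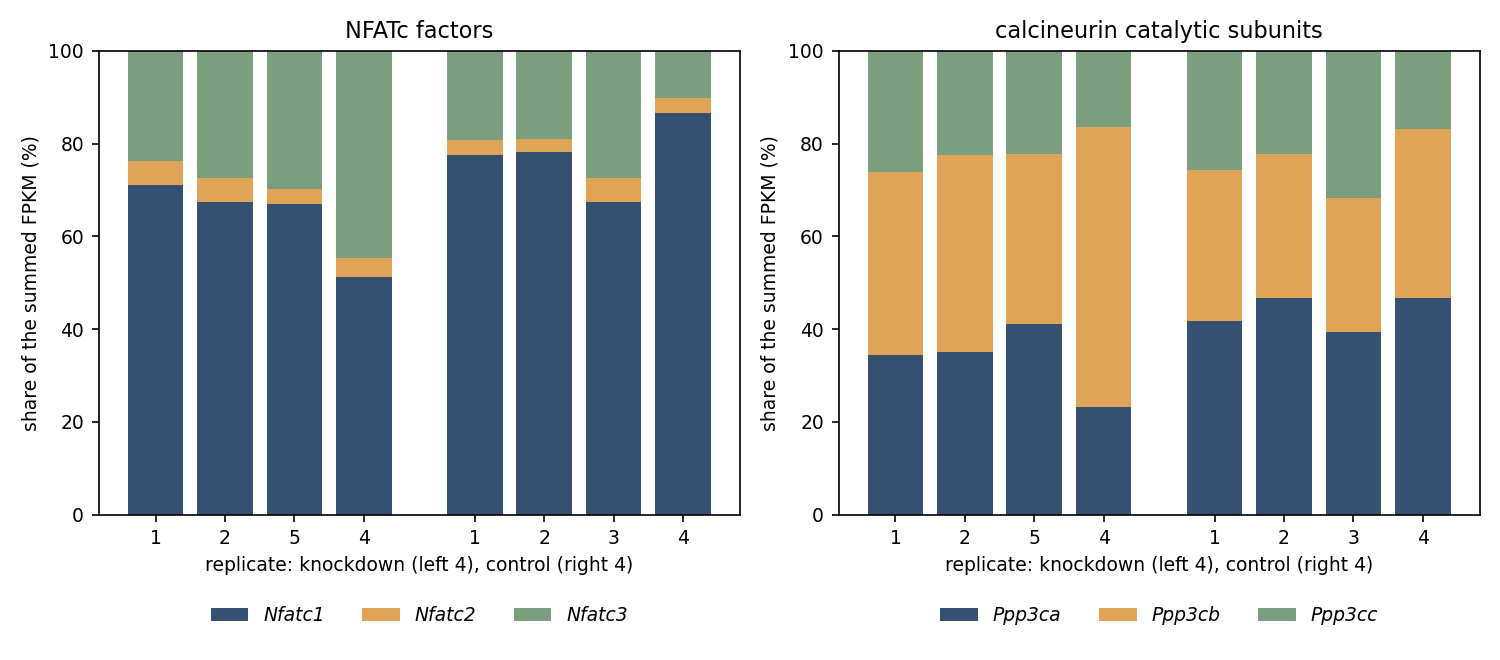
Stacked bars of each gene's share (%) of the summed FPKM of the 3 NFATc factors on the left and of the 3 calcineurin catalytic subunits on the right, 1 bar per library, knockdown before control. The Ppp3cb segment spans 36.7% to 60.4% in knockdown and 28.9% to 36.5% in control libraries, and the Nfatc1 segment 51.1% to 71.0% and 67.5% to 86.7%.

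The regulatory subunit gene Ppp3r1, whose product binds calcium and every catalytic isoform, averaged 43.7 ± 5.67 FPKM in knockdown and 40.1 ± 5.48 FPKM in control libraries (SD, n = 4 each). It lies on chromosome 11 (17159263 to 17200375, plus strand) and had 42.5, 43.0, 51.6 and 38.0 FPKM in knockdown replicates 1, 2, 5 and 4, against 43.8, 41.6, 43.0 and 32.0 FPKM in control replicates 1 to 4. The groups overlapped, and the log2 change of 0.12 ± 0.17 (SE) became −0.04 after median-of-ratios scaling. Relative to the summed catalytic FPKM it stood at 0.354, 0.393, 0.461 and 0.477 in the knockdown libraries in the same order, against 0.3496, 0.371, 0.398 and 0.325 in controls. These ratios overlapped as well. Its testis paralogue Ppp3r2 was listed at 0 in all 8 libraries.

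Rcan1, the calcineurin inhibitor, had the lowest mean level of the 9 genes. It lies on chromosome 16 (92391953 to 92470867, minus strand) and is itself a known NFAT target: transcription from its internal start responds to calcineurin, whereas the upstream start is not known for this. FPKM per gene joins the transcripts of all its starts. The RefSeq promoter windows of the internal and the upstream start are shown because they differ in the NFAT core letters. These are GGAAA or on the other strand TTTCC, in capitals. Of the 7 Rcan1 transcripts in GENCODE M21, 0 held the bases checked after the upstream start and 1 held those after the internal start. Each line gives the 250 bases before the start, 5′ to 3′ on the minus strand of GRCm38.p6, at chr16:92400079-92400328 for the internal and chr16:92466170-92466419 for the upstream start.
Rcan1 internal start: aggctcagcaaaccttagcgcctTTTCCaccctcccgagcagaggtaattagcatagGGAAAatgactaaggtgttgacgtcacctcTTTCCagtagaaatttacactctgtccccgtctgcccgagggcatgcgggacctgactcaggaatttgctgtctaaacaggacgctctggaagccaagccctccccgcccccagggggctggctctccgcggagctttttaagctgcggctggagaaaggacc
Rcan1 upstream start: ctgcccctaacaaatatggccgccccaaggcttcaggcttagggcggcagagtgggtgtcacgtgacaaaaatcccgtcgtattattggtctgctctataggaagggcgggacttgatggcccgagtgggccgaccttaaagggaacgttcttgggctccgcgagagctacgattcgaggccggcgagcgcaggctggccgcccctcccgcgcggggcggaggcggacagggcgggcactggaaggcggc
The internal window held 3 core matches and the upstream window 0. Of 32841 windows of the same length, 55.6% held at least 1 match and 6.39% at least 3. A match describes letters and not a bound site.

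Rcan1 had 5.09, 6.22, 5.32 and 7.54 FPKM in knockdown replicates 1, 2, 5 and 4, against 4.88, 4.51, 5.16 and 2.76 FPKM in control replicates 1 to 4. The groups overlapped only between knockdown replicate 1 and control replicate 3, and the replicate 4 libraries were the highest and lowest of all. The means were 6.04 ± 1.11 and 4.33 ± 1.08 FPKM in knockdown and control libraries (SD, n = 4 each), a ratio of 1.40, and the log2 change was 0.41 ± 0.21 (SE). It was 0.26 without control replicate 4 and 0.16 without both replicate 4 libraries, and stayed positive under all 21 alternatives. Rcan1 was thus highest in knockdown replicate 4, the library with the lowest Nfatc1, and lowest in control replicate 4, the library with the highest. Both libraries stood apart in marker lists, and a relation of the 2 genes was not tested.

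Among the promoter windows of the other members at hand, that of Ppp3cb held 3 core matches too, all as TTTCC. It is shown because Ppp3cb was the gene whose groups did not overlap, and lies at chr14:20546574-20546823 (GRCm38.p6, minus strand, capitals as above).
Ppp3cb start: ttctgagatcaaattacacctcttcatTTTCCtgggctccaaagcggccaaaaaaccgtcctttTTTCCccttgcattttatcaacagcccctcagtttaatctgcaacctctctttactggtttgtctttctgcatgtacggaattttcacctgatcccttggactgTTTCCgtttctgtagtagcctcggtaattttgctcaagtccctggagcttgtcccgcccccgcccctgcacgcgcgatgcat
The 2 windows of Nfatc2 held 3 and 1 matches, those of Nfatc3 1 and 0, that of Nfat5 2 and that of Ppp3r1 0. Windows for Nfatc1, Ppp3ca and Ppp3cc are not shown.

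**Figure D4:**
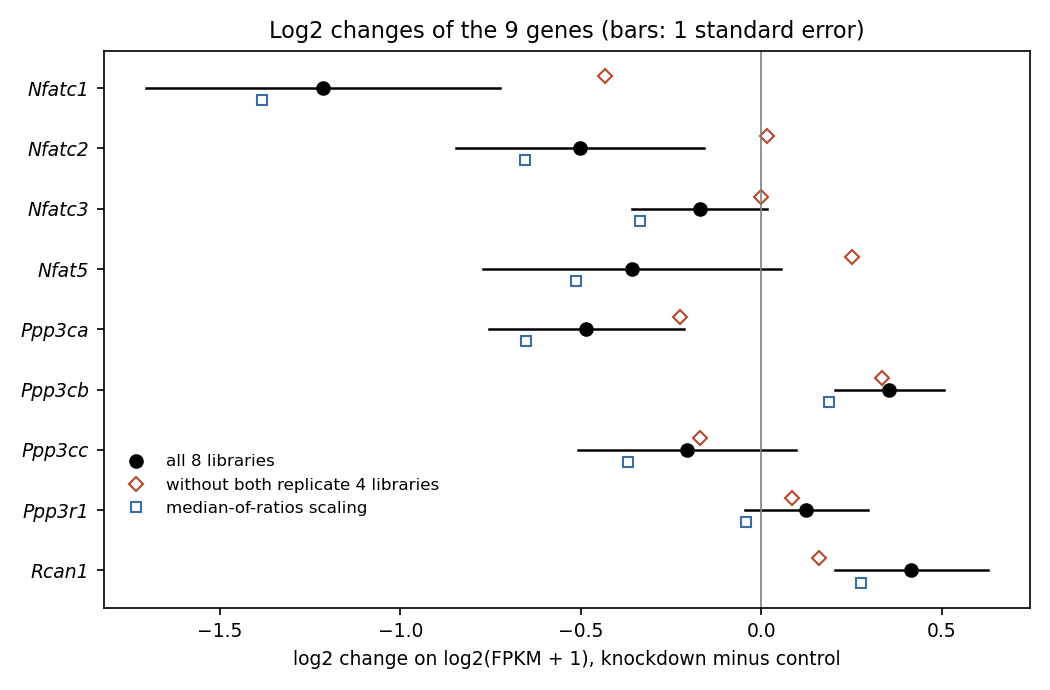
Log2 change on the log2(FPKM + 1) scale (x axis, knockdown minus control) of each of the 9 genes: black points with bars of 1 standard error for all 8 libraries, open red diamonds without both replicate 4 libraries, and open blue squares after median-of-ratios scaling. Without the replicate 4 libraries Nfatc1 is at −0.43 and not −1.21, while Ppp3cb is at 0.33 and not 0.35; after rescaling Ppp3cb is at 0.19.

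By level in the controls the 9 genes ran from Nfatc1 (216 FPKM) through Ppp3ca (48.3 FPKM), Nfatc3 (44.5 FPKM), Ppp3r1 (40.1 FPKM), Ppp3cb (35.7 FPKM), Ppp3cc (27.0 FPKM), Nfat5 (13.1 FPKM) and Nfatc2 (9.05 FPKM) to Rcan1 (4.33 FPKM). Only Nfatc1 over Ppp3ca, Nfat5 over Nfatc2 and Nfatc2 over Rcan1 held in all 4 control libraries. Nfatc3 lay above Ppp3r1 in 2 of 4 and the other neighbours kept their order in 3 of 4, so these neighbours are not ordered beyond their spread. In the knockdown libraries Ppp3cb (45.7 FPKM) came next after Nfatc1 (92.0 FPKM), and Ppp3ca (36.0 FPKM) came behind Ppp3r1 (43.7 FPKM) and Nfatc3 (40.1 FPKM). Nfatc1 lay above Ppp3cb, Ppp3cb above Ppp3r1 and Nfatc2 (6.25 FPKM) above Rcan1 (6.04 FPKM) in 3 of 4 knockdown libraries each. These neighbours are therefore not ordered beyond their spread either.

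The other genes of the pathway were taken from 6 lists of 102 genes, of which 89 were tested. Of these, 3 rose and 0 fell at an adjusted p under 0.05, where 1.63% of all genes tested rose and 0.109% fell. The 3 were Rcan3, Akap1 and Il4, described here with their lists. Il4 passed the filter only through the knockdown libraries, so its call is no support for a difference. The lists were written with earlier results of these data known, and the count of 3 is not read further. At an unadjusted p under 0.05 there were 20 of the 89, against 19.2% of all genes tested, a share that also stands behind the small counts at this level in each list.

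In the list of other calcineurin subunits, inhibitors and anchors, 2 of 11 tested genes rose and 0 fell, with a median log2 change of 0.25. Rcan3, a paralogue of Rcan1 that also binds calcineurin, had 5.10, 5.84, 7.26 and 9.06 FPKM in knockdown replicates 1, 2, 5 and 4, against 2.53, 2.38, 3.15 and 1.18 FPKM in control replicates 1 to 4. The groups were well apart, and the log2 change was 1.25 ± 0.25 (SE; limma adjusted p = 0.0401). Akap1, which encodes an anchor protein of the outer mitochondrial membrane that binds protein kinase A and calcineurin, had 4.28, 7.13, 4.06 and 7.16 FPKM in knockdown replicates 1, 2, 5 and 4, against 1.62, 1.70, 1.32 and 2.53 FPKM in control replicates 1 to 4. Its groups did not overlap either (log2 change 1.23 ± 0.23, SE; limma adjusted p = 0.0325). Rcan3 kept its call in 1 of 8 fits that each left out 1 library (adjusted p 0.0371 to 0.117) and Akap1 in 2 of 8 (0.0267 to 0.124), and both lost it after median-of-ratios scaling (0.0618 and 0.0661). Sex as a covariate gave 0.998 and 0.879, and testing all genes without a filter 0.149 and 0.142. Rcan3 and Akap1 overlap other annotated genes, so reads of those may be included.

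In the list of NFAT target genes of lymphocytes, 1 of 23 tested genes rose and 0 fell, with a median log2 change of 0.23. Il4, the interleukin 4 gene, had 1.52, 1.94, 1.43 and 3.21 FPKM in knockdown replicates 1, 2, 5 and 4, against 0.363, 0.230, 0.167 and 0.135 FPKM in control replicates 1 to 4. Every knockdown library lay above every control. Il4 passed the filter only through the knockdown libraries, since every control was under 1 FPKM, so its call is no support for a difference (log2 change 1.27 ± 0.21, SE; limma adjusted p = 0.0227), and on this scale the change of a gene under 1 FPKM is understated. Il4 kept its call in 3 of 8 fits without 1 library (adjusted p 0.0181 to 0.0920) and after median-of-ratios scaling (0.0356). Among other fits, it lost it with no filter (limma adjusted p = 0.0975), at a pseudocount of 5 (0.0596) and with the B cell level subtracted (0.242). Of 20 alternatives in which Il4 was tested, it kept its call in 10. With sex as a covariate the log2 change of Il4 was 1.11, in a fit where the difference rests on control replicate 1 alone. T and NK cells and basophils can make this cytokine, and their part in it was not tested. The summed FPKM of 11 T cell markers was 291 to 689 in knockdown and 162 to 568 in control libraries, that of 6 NK cell markers 84.4 to 127 and 31.1 to 153, and that of 6 basophil and mast cell markers, a list added after the result was seen, 5.46 to 13.4 and 2.19 to 10.2. None of the T and NK cell markers rose or fell at the threshold, nor did the 2 basophil and mast cell markers tested, while 4 of those 6 were too low to test. None of the markers was at 0 in a library.

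In the list of genes of calcium entry and release, 0 of 22 rose or fell, and 3 had an unadjusted p under 0.05. The median log2 change was −0.12, and 12 of 22 were lower. Plcg2, the phospholipase that B cell receptors use to release calcium, had 66.6, 67.9, 69.1 and 23.4 FPKM in knockdown replicates 1, 2, 5 and 4, against 90.6, 111, 90.4 and 129 FPKM in control replicates 1 to 4. The groups did not overlap, but the log2 change of −0.99 ± 0.34 (SE) did not pass (adjusted p = 0.172, limma). Atp2a3, a calcium pump of the endoplasmic reticulum in blood cells, had 234 ± 94.5 and 389 ± 62.3 FPKM in knockdown and control libraries (SD, n = 4 each; adjusted p = 0.243, limma). Calm3, one of the calmodulin genes, had 121 ± 36.6 and 75.9 ± 15.0 FPKM (adjusted p = 0.193, limma). Knockdown replicate 4, lowest in B cell markers, was also lowest in Plcg2 and Atp2a3. Knockdown replicates 1 and 2, highest in the mean log2 level of B cell markers (7.54 and 7.49), lay below every control in both genes too. The part of B cell content in these differences was not tested.

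Among NFAT kinases, 0 of 12 tested genes rose or fell, with 3 at an unadjusted p under 0.05 and a median log2 change of 0.07. Mapk9, the JNK2 gene, had 28.5, 36.5, 42.2 and 41.7 FPKM in knockdown replicates 1, 2, 5 and 4, against 22.0, 20.6, 19.7 and 23.8 FPKM in control replicates 1 to 4. Its groups did not overlap, and it differed by 0.75 ± 0.17 on the log2 scale (SE), with a limma adjusted p of 0.0673. Csnk1e, a casein kinase 1 gene, had 21.0 ± 1.88 and 13.96 ± 2.16 FPKM in knockdown and control libraries (SD, n = 4 each; adjusted p = 0.131, limma), and Dyrk2 had 6.37 ± 1.55 and 4.003 ± 1.39 FPKM (adjusted p = 0.249, limma).

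Among nuclear partners of NFAT, 0 of 16 rose or fell, 3 had an unadjusted p under 0.05 and the median log2 change was −0.34. Irf4, a partner of NFAT in lymphocytes, had 33.9, 26.7, 38.4 and 13.6 FPKM in knockdown replicates 1, 2, 5 and 4, against 53.7, 29.4, 43.1 and 99.98 FPKM in control replicates 1 to 4. As with Nfatc1, the lowest and highest values were those of the replicate 4 libraries, and the groups overlapped (adjusted p = 0.251, limma). Maf had 3.25 ± 0.321 and 1.99 ± 0.404 FPKM in knockdown and control libraries (SD, n = 4 each; adjusted p = 0.164, limma), and the AP-1 gene Junb 88.3 ± 24.9 and 57.9 ± 13.9 FPKM (adjusted p = 0.256, limma). Junb overlaps the annotated gene Prdx2, so reads of Prdx2 may be included.

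Among osmotic stress targets of NFAT5, 0 of 5 tested genes rose or fell, 1 had an unadjusted p under 0.05 and the median log2 change was 0.11. Hspa1b, a heat shock protein 70 gene, had 0.342, 0.433, 3.60 and 0.424 FPKM in knockdown replicates 1, 2, 5 and 4, against 2.11, 13.6, 6.21 and 12.2 FPKM in control replicates 1 to 4 (adjusted p = 0.0956, limma). Knockdown replicate 5 lay above control replicate 1, so the groups overlapped. Hspa1b has a near-identical neighbour, Hspa1a, and reads may be split between them. Slc6a6, the taurine transporter gene, had 18.4 ± 3.52 and 13.1 ± 3.41 FPKM in knockdown and control libraries (SD, n = 4 each; adjusted p = 0.289, limma). Slc38a2, an amino acid transporter gene, had 57.7 ± 14.8 and 70.1 ± 5.64 FPKM (adjusted p = 0.413, limma).

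**Figure D5:**
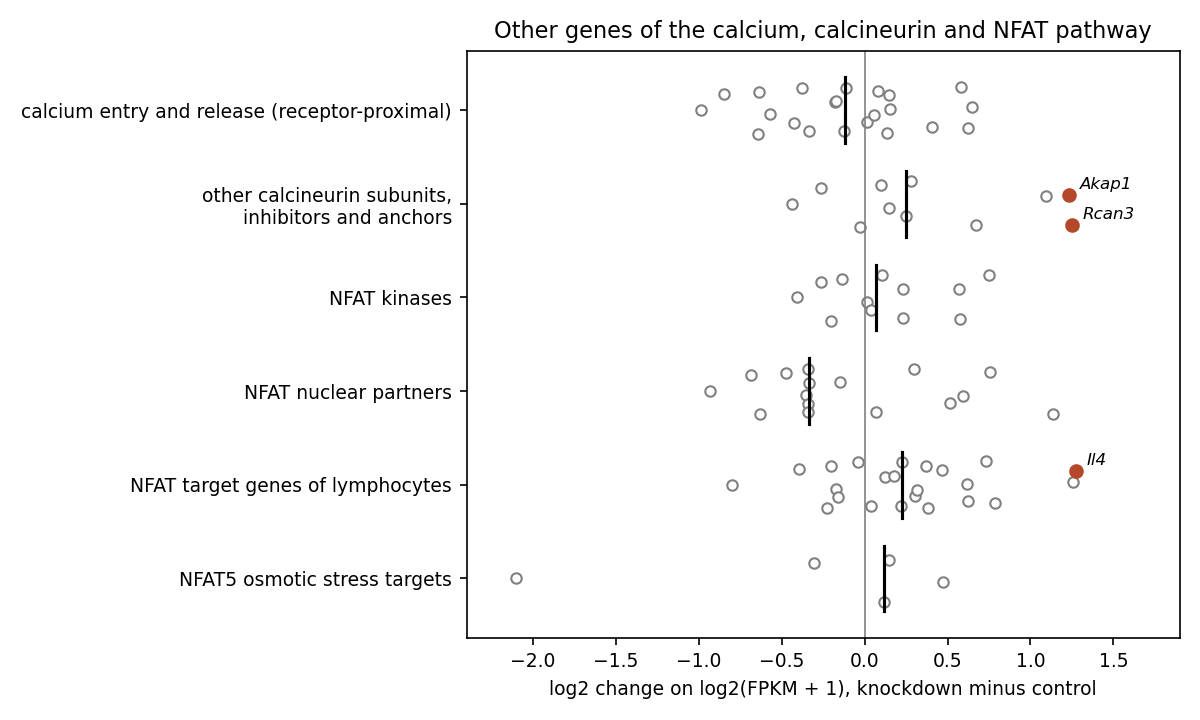
Log2 change on the log2(FPKM + 1) scale (x axis, knockdown minus control) of each tested gene in 6 pathway lists, with a black bar at each list's median; filled red points are the 3 genes at an adjusted p under 0.05. Medians lie between −0.34 for nuclear partners and 0.25 for other calcineurin genes. Of the filled points, Il4 passed the filter only through the knockdown libraries.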

How the data were processed

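The authors deposited FPKM for 54018 gene identifiers in 8 libraries. CASAVA and Cufflinks were used, per the submitters' processing notes, which give no versions. No source used here names the aligner, build, annotation or strand setting. Identifiers were named by GENCODE M21 (GRCm38), which matched 53865, and member coordinates are from it. Promoter windows are from RefSeq (GRCm38.p6). Without strand, reads of overlapping genes cannot be told apart, and of the 9 members only Nfatc2 and Nfat5 overlap no other annotated gene.

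Depth was estimated from steps between low values of single-transcript genes of at least 1500 bases. Groups and replicate numbers came from the titles. Genes that reached 1 FPKM in 4 or more libraries were tested on log2(FPKM + 1) with limma 3.58.1 (mean-variance trend, no covariate, R 4.3.3). Benjamini-Hochberg adjustment ran over 12890 genes, and the fit was tested on simulated data. The members and lists were chosen with earlier results of these data known. Of 181 list symbols, 1 had no match. Pathway genes named were those past the threshold without overlap, or else the 3 with the smallest p in a list. Replicate numbers 1, 2 and 4 are shared by the groups, but deviations of same-numbered libraries correlated at 0.16, 0.05 and −0.12, so they were not taken as pairs. Alternatives changed the pseudocount, filter, scaling, variance model, covariates and libraries; subtraction of the B cell marker level was added after seeing the data. Plots were drawn with matplotlib 3.10.9, and tables made with pandas 2.3.3 and numpy 2.4.6 in Python 3.11.15.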

Additional observations from a re-analysis of the deposited data

Results flagged for a closer look

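Ppp3r1 in control replicate 4, at 32.0 FPKM, lay far below the other 3 controls (41.6 to 43.8 FPKM): its gap to the next library took up 0.838 of the range of the group on the log2 scale, above Dixon's 95% critical value for 4 samples. Among 24 such comparisons of the 9 genes, Kdm1a and 2 family shares, it was the value that passed, and chance flags about 1 in 20. The nearest to passing was Nfatc1 in knockdown replicate 4, at 0.815. Control replicate 4 also had the lowest summed FPKM of the 8 libraries, 572660 against 671732 to 762888 elsewhere.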

How the results depend on the processing

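The number of members called was 0 under all 21 alternatives. The members' median log2 change of −0.21 lay between −0.37 and 0.03 (without knockdown replicate 4), and moved by less than the spread between replicates. Nfatc1, Ppp3ca, Ppp3cb and Rcan1 kept their sign under all 21, while Nfatc2, Nfatc3 and Ppp3cc each changed it in 1, Nfat5 in 2 and Ppp3r1 in 3. The 224 genes called (210 higher) became 24 at a pseudocount of 5, 2 with no filter on low values, 71 in genes averaging 5 FPKM or more, 126 after quantile normalization, 761 with array weights, 120 without both replicate 4 libraries, 2 with sex as a covariate and 85 with the B cell marker level subtracted, and between 8 (without control replicate 4) and 333 (without knockdown replicate 5) without 1 library. With the replicate number as a block, 0 genes were called. Same-numbered libraries were not shown to be pairs, and knockdown replicate 5 and control replicate 3 add nothing to such a fit. No conclusion is drawn from it. The pathway genes called, 3 in all, became 0 at a pseudocount of 5, with no filter and with the replicate block. Their number was also 0 with the B cell level subtracted. It was 1 after quantile normalization, median-of-ratios scaling or without both replicate 4 libraries, 7 with array weights, and 0 to 4 without 1 library. Among genes averaging 5 FPKM or more 0 were called, but Rcan3, Akap1 and Il4 average less and were not tested there. The difference in Nfatc1 share was between −16.7 and −9.05 percentage points without 1 library, and that in Ppp3cb share between 7.31 and 15.2. The cause of these shifts was not tested. With sex as a covariate the group difference rests on control replicate 1 alone, so that fit cannot separate sex from group. Depth did not limit the 9 genes, but Il4 and Nfatc4 are near the floor.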
